A study of Mus musculus with 6 samples.

Results

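ER-associated degradation (ERAD) removes proteins that fail to fold in the endoplasmic reticulum. Lectins and mannosidase-like proteins recognise them by their glycans, a membrane complex built around the adaptor SEL1L and the ubiquitin ligase HRD1 draws them into the cytosol and marks them, and the proteasome degrades them. Pancreatic β-cells fold large amounts of proinsulin, part of which misfolds and is cleared by this route, and many ERAD genes are known targets of the unfolded protein response. The 10 genes described here are the ERAD components Derl1, Derl2, Derl3, Sel1l, Syvn1, Herpud1, Edem1, Edem2, Os9 and Erlec1. They were taken by gene symbol from the 22298 genes of the table, by a rule that names genes and sets no threshold, but with earlier results of these data known. All 10 passed the filter on low counts, as did 12747 genes in all.

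The RNA came from MIN6, a mouse insulinoma line that secretes insulin, in 3 samples labelled control and 3 labelled chronic epinephrine. The protocol was 3 days of epinephrine at 100 nM and then 2 days without it, and whether the sequenced RNA was collected before or after those 2 days is not given in the sources used here. The cells are a single tumour line, and p-values measure the spread between these samples. The methods call the data of the study biological replicates and the samples independent, while the labels of the sequenced samples do not say whether they came from separate cultures. The question of the comparison is how the cells' gene expression differed after chronic epinephrine. Levels are given as CPM (a gene's count scaled to the sample's total, normalized by edgeR's TMM method) when 1 gene is compared between samples, and as FPKM (which is scaled to transcript length too) when genes are compared with each other. The test was edgeR's quasi-likelihood test, and FDR is its Benjamini-Hochberg adjusted p-value over all genes tested, called under 0.05.

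Totals were 15017065 to 18127171 expected counts per sample. Control 1 stood apart, with a Pearson's r of log2 CPM across genes (which are not independent replicates) of 0.979 to control 2 and 0.978 to control 3, where all other pairs within a group had 0.992 or 0.993. It differed by more than 0.5 log2 units from the mean of controls 2 and 3 in 3191 of the genes tested (25%). Its level was above that of both other controls for 8 of the 10 members, all but Derl2 and Erlec1, and for 43.1% of all genes. The label of the line was checked against 15 β-cell markers, all of which were tested, whose levels summed to 54900, 67900 and 71500 CPM in controls 1, 2 and 3 and from 64800 to 66800 CPM after epinephrine. Of the 15, 12 were lower and 3 higher after epinephrine, with a median log2 fold change of -0.15. With all samples edgeR called 2 lower and none higher (13.3%, against 2.63% of all genes). Without control 1 it called 7 lower and 2 higher (60%, against 21.6% of all genes). None of the higher markers had an unadjusted p under 0.05 with all samples, and DESeq2 called 3 lower and none higher (20%, against 5.52% of all genes). Other marker lists moved with groups or samples. The 20 hepatocyte markers summed to 18.3, 113 and 274 CPM in controls 1, 2 and 3 and to 15.5 to 18.7 CPM after epinephrine, and 9 of them were at 0 counts in control 1, 9 or 10 in each epinephrine sample and none in controls 2 and 3. Values without control 1 therefore rest on the controls that held these transcripts, and in that fit 15 of 17 tested hepatocyte markers were called lower, with a median log2 fold change of -6.79. Which controls represent the line better cannot be told apart here. The 8 markers of other islet endocrine cells summed to 181 to 217 CPM in controls and 382 to 416 CPM after epinephrine, nearly all of it Gcg, the glucagon gene, with means of 194 and 394 CPM, and 4 of the 8 were tested. The 12 exocrine and duct markers summed to 29.9 to 50.1 and 86.9 to 91 CPM, of which Spp1 had means of 39.8 and 75 CPM, with Cpa1, Cel, Prss2, Pnlip and Amy2a1 at 0 counts in all samples. The 8 leukocyte markers summed to 45.7 to 69.3 and 75.4 to 79.3 CPM, nearly all of it C1qa at means of 56 and 74.6 CPM, and the 8 fibroblast markers to 1.77 to 23.2 and 1.92 to 19.7 CPM. With all samples edgeR called higher 1 of 4 tested markers of other islet cells, 2 of 2 exocrine and duct markers and 1 of 2 leukocyte markers. It called none of 3 tested fibroblast and 4 tested hepatocyte markers. The part of these cells or of control 1's differences in the results below was not tested. In bulk RNA, more cells of a type and more RNA per cell cannot be told apart.

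Promoter windows from RefSeq (GRCm38.p6, 250 bases before to 50 after a start site) were matched by symbol for 8 members, with 2 windows for Derl2. Derl1 and Erlec1 had none. The windows were searched on both strands for the elements through which the unfolded protein response is known to act. These are ERSE (CCAAT and CCACG separated by 9 bases), ERSE-II (ATTGG and CCACG separated by a single base), the UPR element (TGACGTGG or TGACGTGA) and the C/EBP-ATF element bound by ATF4 and CHOP (TGATGNAA). Matches were found for 3 members, and these stretches are shown to place the elements beside the levels of Derl3, Syvn1 and Herpud1 given below. Each stretch runs 5′ to 3′ on the gene's strand with 20 bases on either side, and capitals mark the matches.
Derl3, chr10:75893222-75893280, plus strand: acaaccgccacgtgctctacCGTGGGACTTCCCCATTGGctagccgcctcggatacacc
Syvn1, chr19:6046512-6046570, plus strand: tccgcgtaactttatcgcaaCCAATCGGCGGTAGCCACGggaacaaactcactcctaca
Herpud1, chr8:94386297-94386407, plus strand: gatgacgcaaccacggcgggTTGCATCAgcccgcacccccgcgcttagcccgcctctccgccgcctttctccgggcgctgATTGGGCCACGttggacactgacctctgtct

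The Derl3 match is an ERSE on the opposite strand, whose first base lies 156 bases before the start site. Syvn1 has an ERSE on its own strand from 44 bases before the start site. Herpud1 has an ERSE-II on its own strand from 52 bases before the start site, and further upstream a C/EBP-ATF element on the opposite strand from 112 bases before it. No match overlapped another. Of all 32851 RefSeq windows of this length, 0.119% held an ERSE, 0.0365% an ERSE-II and 3.97% a C/EBP-ATF element, while the UPR element forms were held by 0.676% and 0.441%. The windows of Edem1, Edem2, Os9, Sel1l and Derl2 held none of these letters, which says nothing beyond these windows. A link between the elements and the changes in level was not tested.

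Among the 10 members 4 rose after chronic epinephrine, namely Derl3, Derl1, Herpud1 and Erlec1, and none fell. Over all genes tested 2.63% were called, 2.02% as higher and 0.612% as lower. The groups did not overlap for 7 members, all with the epinephrine samples on top, where 27.3% of all genes did not overlap and 14.3% had the epinephrine samples on top. The same 7 had an unadjusted p under 0.05, as did 17.1% of all genes. All 10 members had a log2 fold change above 0, as did 49.5% of all genes, and the median was 0.38 against -0.0023 over all genes. Derl3 changed 2.33-fold and the other 3 called members 1.29-fold to 1.32-fold. DESeq2 called 6 members, with Edem1 and Edem2 added to the same 4, where it called 5.07% of all genes (3.09% higher, 1.98% lower). Only Derl3 was called with library size as the only scaling, with limma on FPKM, without a filter and with a block for replicate number. In those fits 1.4% to 2.47% of all genes were called. Without control 1 edgeR called 9 members, all but Derl2, where it called 21.6% of all genes (12.1% higher, 9.46% lower). Without any other single sample it called none of the members, and between 0.364% and 1.48% of all genes. At an unadjusted p under 0.05, 7 members passed in each of those 5 fits. The share of all genes at that looser threshold was 17.1% with all samples and is not given for those fits. The median of the members stayed between 0.32 and 0.42 whichever sample was left out.

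**Figure D1:**
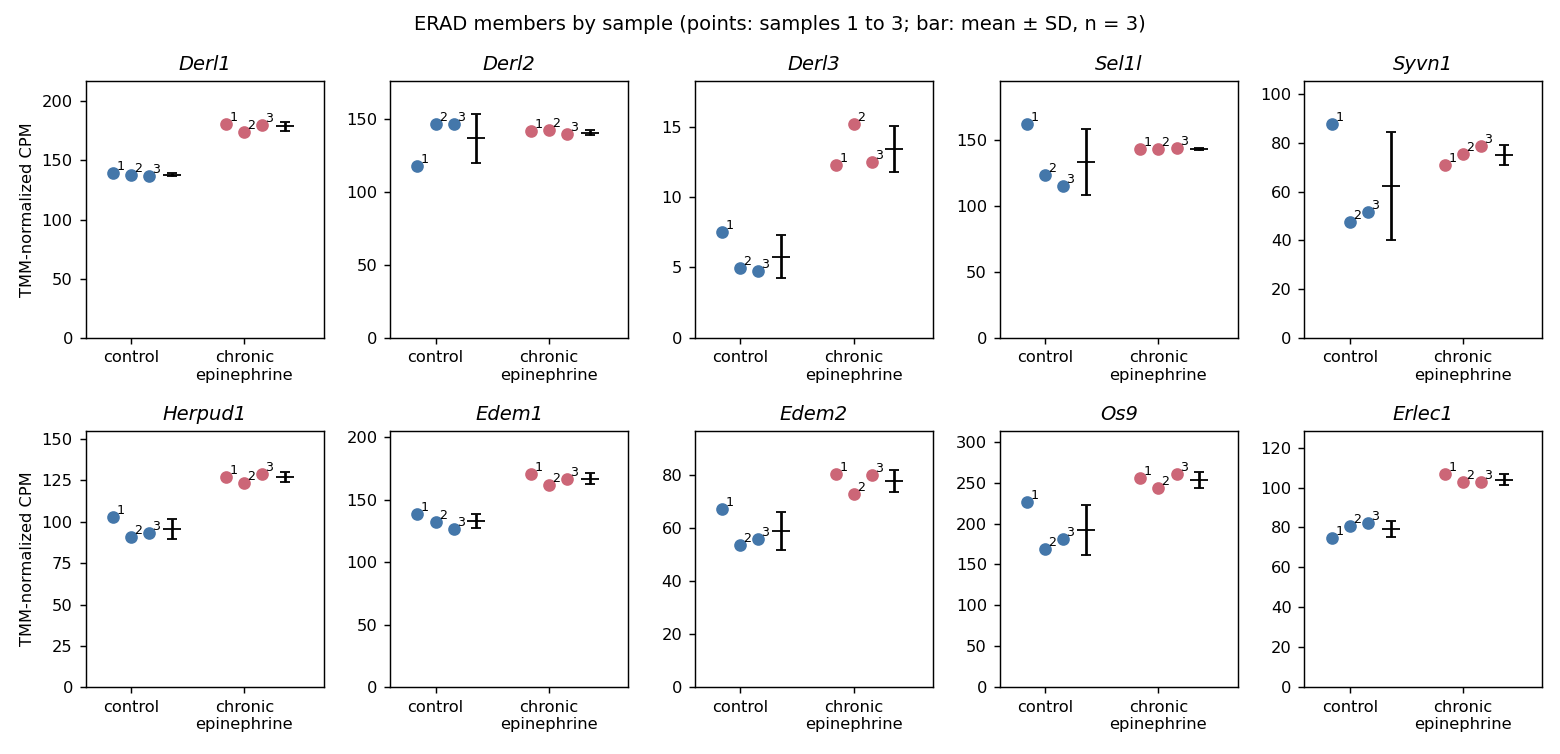
TMM-normalized CPM (vertical axis, from 0) of each member in control samples 1 to 3 (blue) and chronic epinephrine samples 1 to 3 (red), with mean ± SD beside the points. The groups do not overlap for Derl1, Derl3, Herpud1, Edem1, Edem2, Os9 and Erlec1, while control 1 lies above every epinephrine sample for Sel1l and Syvn1 and below every epinephrine sample for Derl2.

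The derlins are membrane proteins of the rhomboid pseudoprotease family that help to move substrates out of the endoplasmic reticulum. Derl3 (ENSMUSG00000009092, chromosome 10 of GRCm38 from 75893413 to 75895941) had 7.51, 4.97 and 4.76 CPM in controls 1, 2 and 3 and 12.3, 15.2 and 12.5 CPM in epinephrine samples 1, 2 and 3. Its promoter window held the ERSE shown above. Control 1 was the highest control and epinephrine 2 the highest sample, and the groups did not overlap. Its mean rose from 5.75 ± 1.53 to 13.4 ± 1.63 CPM (SD, n = 3), which edgeR fitted as 1.22 on the log2 scale (SE 0.19, FDR 0.0139). These values rest on 76 to 116 counts per control and 189 to 272 counts per epinephrine sample, the fewest of the members. The log2 fold change was 1.46 without control 1 (FDR 9.09e-09), and leaving out any other sample gave 1.11 to 1.28 with FDR values of 0.0532 to 0.102.

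Derl1 (ENSMUSG00000022365, chromosome 15 from 57869502 to 57892448), the widely expressed founder of the family, had 139, 138 and 137 CPM in controls 1, 2 and 3 and 181, 174 and 180 CPM after epinephrine. All controls, control 1 included, were within 2 CPM of each other and below all epinephrine samples. By edgeR Derl1 rose by 0.37 log2 units (SE 0.07, FDR 0.0418). The value was 0.37 also without control 1 (FDR 4.31e-06), and the call was lost without any other single sample, with FDR values of 0.117 to 0.271. Of its 50-base transcript windows 5.56% were shared with Gm35638.

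Derl2 (ENSMUSG00000018442, chromosome 11 from 71007164 to 71019841) had 118, 147 and 147 CPM in controls 1, 2 and 3 and 142, 143 and 140 CPM after epinephrine. The epinephrine samples lay between control 1 and the other controls. Its log2 fold change was 0.04 (95% interval -0.19 to 0.28, FDR 0.867 by edgeR), within the spread between replicates, and -0.06 without control 1 (FDR 0.487). Its exons overlap those of Mis12 on the other strand by 231 bases, and reads there cannot be told apart where strand was not used, which the sources do not state.

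SEL1L holds the HRD1 complex together and HERP stabilises it. Sel1l (ENSMUSG00000020964, chromosome 12 from 91806043 to 91849157) had 162, 123 and 115 CPM in controls 1, 2 and 3 and 143, 143 and 144 CPM after epinephrine. The epinephrine samples were nearly equal and lay below control 1 but above controls 2 and 3. For Sel1l edgeR gave a log2 fold change of 0.10 (95% interval -0.19 to 0.40, FDR 0.726). Without control 1 it was 0.27 (SE 0.05, FDR 0.000530).

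Syvn1 (ENSMUSG00000024807, chromosome 19 from 6046576 to 6053712), which encodes the ubiquitin ligase HRD1, had the widest spread among controls relative to its level, with 87.8, 47.3 and 51.7 CPM in controls 1, 2 and 3. The epinephrine samples had 70.9, 75.4 and 78.7 CPM, again below control 1 and above controls 2 and 3. The log2 fold change was 0.27 (95% interval -0.21 to 0.75, FDR 0.563 by edgeR). It was 0.60 without control 1 (SE 0.07, FDR 7.79e-08), a 1.52-fold difference, so that control 1 decided whether Sel1l and Syvn1 were called. Syvn1, not called with all samples, carries the other ERSE shown above. Its exons overlap those of Mrpl49 on the other strand by 91 bases.

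Herpud1 (ENSMUSG00000031770, chromosome 8 from 94386438 to 94395377), which encodes the ubiquitin-like protein HERP and carries the ERSE-II shown above, had 103, 91 and 93.3 CPM in controls 1, 2 and 3. It had 127, 123 and 129 CPM after epinephrine, and the groups did not overlap. By edgeR Herpud1 rose by 0.40 log2 units (SE 0.08, FDR 0.0436). The value was 0.46 without control 1 (FDR 3.94e-07), and the call was lost without any other single sample, with FDR values of 0.125 to 0.259.

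The 4 glycan-reading members had similar values with all samples. EDEM proteins act on mannose residues of misfolded glycoproteins, and OS-9 and XTP3-B (the product of Erlec1) are lectins that bind the trimmed glycans and hand the substrate to SEL1L. All 4 had log2 fold changes between 0.33 and 0.40, groups that did not overlap and an unadjusted p under 0.05, and 1 of them, Erlec1, was called. This was not particular to them, as Derl1 and Herpud1 had 0.37 and 0.40, also with groups apart. Without control 1 the 4 spread from 0.35 to 0.54. Of all genes tested, 14.3% had every epinephrine sample above every control, 17.1% had an unadjusted p under 0.05 and 2.63% were called. Erlec1 (ENSMUSG00000020311, chromosome 11 from 30930774 to 30954335) had 74.6, 80.8 and 82.3 CPM in controls 1, 2 and 3 and 107, 103 and 103 CPM after epinephrine. Control 1 was its lowest sample, unlike in the other 3. By edgeR Erlec1 rose by 0.40 log2 units (SE 0.08, FDR 0.0420), and by 0.35 without control 1 (FDR 2.76e-05), while the FDR was 0.0950 to 0.271 without any other single sample.

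Os9 (ENSMUSG00000040462, chromosome 10 from 127095650 to 127121131) had 226, 169 and 181 CPM in controls 1, 2 and 3 and 256, 243 and 261 CPM after epinephrine. Control 1 lay between the other controls and the epinephrine samples. Os9 was not called by edgeR, at 0.40 log2 units (SE 0.12, FDR 0.124), and the value was 0.54 without control 1 (FDR 1.61e-08).

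Edem1 (ENSMUSG00000030104, chromosome 6 from 108828641 to 108859356) had 139, 132 and 127 CPM in controls 1, 2 and 3 and 171, 162 and 167 CPM after epinephrine, a difference of 0.33 on the log2 scale (SE 0.08, FDR 0.0765 by edgeR). Edem2 (ENSMUSG00000038312, chromosome 2 from 155701677 to 155729475) had 67.1, 53.4 and 55.8 CPM in controls and 80.4, 72.7 and 79.8 CPM after epinephrine, a difference of 0.40 (SE 0.11, FDR 0.0971 by edgeR). In both genes control 1 was the control closest to the epinephrine samples. DESeq2 called both, with adjusted p-values of 0.00566 and 0.0410, and edgeR without control 1 gave FDR values of 9.73e-06 and 8.03e-07.

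**Figure D2:**
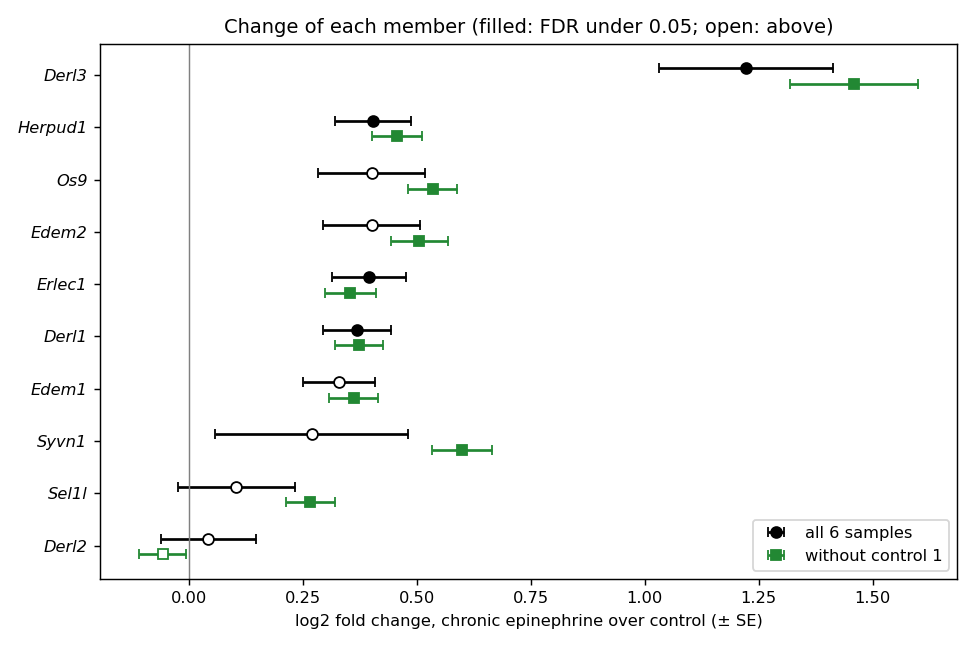
Log2 fold change (chronic epinephrine over control, ± SE) of each member from all 6 samples (black circles) and without control 1 (green squares), with filled symbols for an FDR under 0.05. Derl3 lies at 1.22 and 1.46, 6 members lie between 0.33 and 0.40 with all samples, and Syvn1 moves most, from 0.27 to 0.60.

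Per transcript length, Os9 was the most abundant member in the control group, with a mean of 77.1 FPKM (67.41 to 92.3 over the samples). Herpud1, Derl2 and Derl1 followed at 51.3, 50.4 and 44.0 FPKM, with ranges of Herpud1 (47.62 to 55.51) and Derl2 (40.76 to 58.46) that overlap. Erlec1 had 36.5 FPKM, and Edem2, Edem1, Sel1l and Syvn1 had 25.9, 22.9, 21.9 and 19.9 FPKM with overlapping ranges among neighbours. Derl3 was the least abundant by a wide margin, with 4.40 FPKM. After epinephrine the order changed in 2 places, where Derl1 (55.7 FPKM, 54.04 to 56.85) stood above Derl2 (52.8 FPKM, 51.7 to 54.69) and Syvn1 (23.5 FPKM, 21.45 to 24.91) above Sel1l (23.0 FPKM, 22.9 to 23.08). In both places the ranges overlapped. Derl3 had 10 FPKM after epinephrine (9.29 to 11.36), below the lowest sample of any other member.

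Whether partners changed by different amounts was tested on 6 pairs, as the log2 ratio of their counts within each sample, which needs no scaling between samples. The ratio of Derl3 to Derl1 was -4.21, -4.79 and -4.84 in controls 1, 2 and 3 and -3.88, -3.51 and -3.85 after epinephrine, so that Derl3 gained by 0.87 on Derl1. The ratio of Derl3 to Derl2 was -3.96, -4.88 and -4.94 in controls and -3.52, -3.23 and -3.48 after epinephrine, a difference of 1.19. Neither ratio had overlapping groups, where 27.3% of single genes had none. By an exact permutation test, two-sided, p was 0.1 for each, the smallest that 3 samples against 3 allow, or 0.3 after Benjamini-Hochberg adjustment over the 6 pairs. The differences were 1.07 and 1.50 without control 1.

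The other 4 pairs had overlapping groups. Edem1 to Edem2 differed by -0.08 (exact permutation p = 0.5), from 1.18 ± 0.13 to 1.10 ± 0.04 (SD, n = 3), and by -0.14 without control 1 and -0.015 without control 2. Os9 to Erlec1 differed by 0.02 (exact permutation p = 1), with 1.60, 1.06 and 1.14 in controls and 1.26, 1.24 and 1.34 after epinephrine, and by 0.18 without control 1. Sel1l to Syvn1 differed by -0.20 (exact permutation p = 0.3), with 0.88, 1.38 and 1.16 in controls and 1.01, 0.92 and 0.87 after epinephrine. Without control 1 the difference was -0.33, and without control 2 it was -0.084. Herpud1 to Syvn1 differed by 0.08 (exact permutation p = 1), and by -0.14 without control 1. Without control 1 none of these 4 pairs had overlapping groups, at an exact permutation p of 0.2 each, the smallest that 2 samples against 3 allow. The share of all gene pairs without overlap was not computed in either fit, so these counts are not read as a shift of the pairs. In control 1 each of the 6 ratios lay farther from both other controls than those lay from each other.

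**Figure D3:**
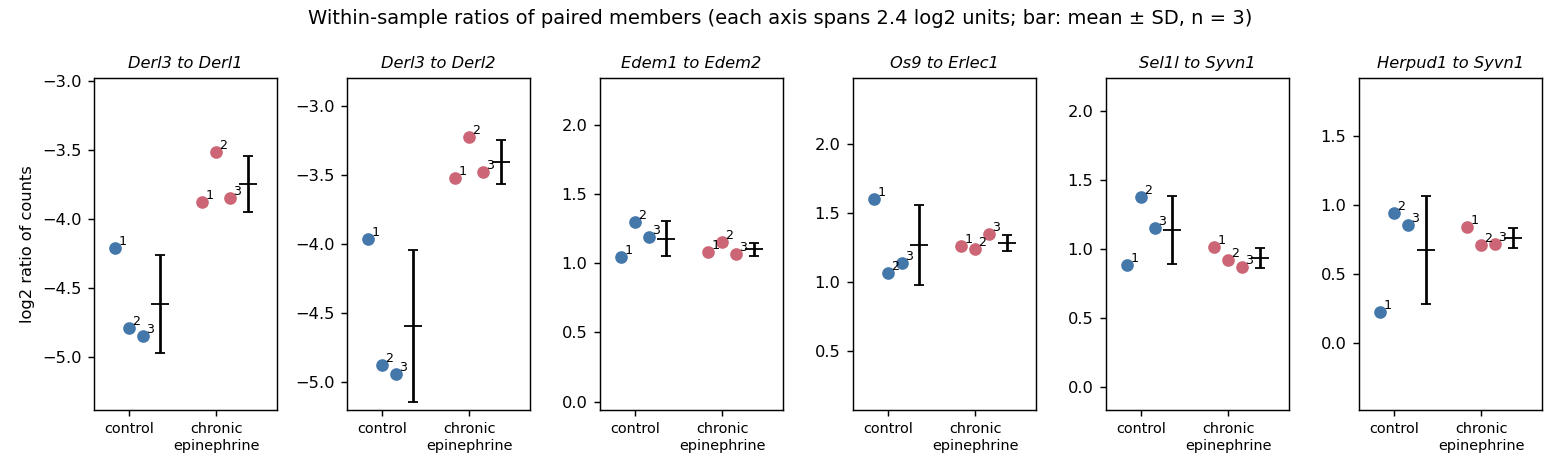
Log2 ratio of the counts of paired members within each sample (vertical axis, the same span in every panel) for controls (blue) and chronic epinephrine samples (red), with mean ± SD. The groups are apart for the ratios of Derl3 to Derl1 and to Derl2, by 0.87 and 1.19, and overlap for the other 4 pairs.

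The rest of the pathway was described with a list of 64 further ERAD genes, of which 63 were tested. Sel1l2, with a count of 0 in every sample, was not. Of the 63, 4 rose and none fell (6.35%, against 2.63% of all genes), 42 were higher and 21 lower, and the median log2 fold change was 0.05. An unadjusted p under 0.05 was reached by 11 higher genes and 1 lower gene, where 1171 higher and 1008 lower of all 12747 genes reached it. DESeq2 called 7 higher and 1 lower (12.7%, against 5.52% of the 12747 genes). Without control 1, edgeR called 16 higher and 3 lower (30.2%, against 21.6% of all genes). It called 3 of the 63 without control 3 and 1 without control 2 or any single epinephrine sample.

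Sdf2l1, a lumenal partner of BiP, had 40.3, 39.8 and 44.7 CPM in controls 1, 2 and 3 and 102, 102 and 104 CPM after epinephrine (log2 fold change 1.30, edgeR FDR 0.000400). Dnajb9, the J protein ERdj4, had 148, 187 and 187 CPM in controls and 282, 282 and 273 CPM after epinephrine (log2 fold change 0.68, edgeR FDR 0.0141). Both had groups that did not overlap. The group of lumenal reductases and chaperone partners, to which they belong, had 2 called genes of 5, where 2.63% of all genes were called. All 5 were higher, as were 49.5% of all genes. Without control 1 it had 4 called genes of 5, where 21.6% of all genes were called.

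Selenos, which recruits the ATPase p97 to the membrane, had 32.8, 48.4 and 50.6 CPM in controls and 74.7, 72.5 and 70.4 CPM after epinephrine (log2 fold change 0.72, edgeR FDR 0.0477). Control 1 was its lowest sample. The p97 group had 1 called gene of 10, where 2.63% of all genes were called. Without control 1 it had 4 of 10, where 21.6% of all genes were called. Hm13, the signal peptide peptidase, had 99, 92.9 and 107 CPM in controls and 149, 151 and 161 CPM after epinephrine (log2 fold change 0.63, edgeR FDR 0.00944).

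By edgeR with all samples the other roles had no called gene, while control 1 decided several of their values. DESeq2 with all samples called 1 higher and 1 lower gene among membrane ligases and their partners and 1 higher among the scaffolds. The gene farthest from 0 was Uggt1, the glucosyltransferase that senses folding, among mannosidases and glycan handling (0.29, edgeR FDR 0.396), and it was called without control 1, at 0.52 (edgeR FDR 2.71e-08). Among membrane ligases and their partners it was Aup1 (0.38, edgeR FDR 0.0539), and among the scaffolds Erlin1 (0.39, edgeR FDR 0.104). DESeq2 called both with all samples (adjusted p 0.00654 and 0.0381). So did edgeR without control 1, at 0.37 and 0.30 (edgeR FDR 0.000182 and 0.000838). Ube2j2 had 0.15 among ubiquitin-conjugating enzymes (edgeR FDR 0.423) and 0.096 without control 1 (edgeR FDR 0.312). Ubqln2 had -0.44 among deubiquitinases and shuttles (edgeR FDR 0.322) and -0.12 without control 1 (edgeR FDR 0.0980). Dnajb14 had -0.09 among cytosolic J proteins (edgeR FDR 0.709) and turned to 0.013 without control 1 (edgeR FDR 0.909). Medians by role ran from -0.05 for the 15 deubiquitinases, shuttles and E4 enzymes, 9 of them lower, to 0.28 for the 5 lumenal partners. Those between included 0.0010 for the 3 cytosolic J proteins and 0.02 for the 11 further membrane ligases and partners. Without control 1 the median of the deubiquitinases, shuttles and E4 enzymes turned to 0.059, with 12 genes higher and 3 lower. It was 0.028 for the J proteins, 0.065 for the membrane ligases and 0.32 for the lumenal partners. The lowest in that fit was -0.013, for the 5 ubiquitin-conjugating enzymes. The 4 glycan-reading members had a median of 0.40 with all samples and 0.43 without control 1, and the 3 derlins had 0.37 in both.

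Compared with 2 other parts of endoplasmic reticulum biology, the members lay between them by median. A list of 20 chaperones and folding enzymes had 12 called, all higher (60%), and a median of 0.55, with the smallest p for Ero1l, an oxidase of disulfide formation, at a log2 fold change of 0.74 (edgeR FDR 0.00289). A list of 14 sensors and transcription factors of the unfolded protein response had 5 called, all higher (35.7%), and a median of 0.29. Its smallest p was that of Trib3, a pseudokinase induced by ATF4 and CHOP, at 1.40 (edgeR FDR 0.00123). The members stood at 40% and 0.38, where 2.63% of all genes were called. Differences between these lists were not tested, and the order of the members and the sensors by share called did not hold across settings. With library size only, for example, 1 of 10 members was called beside 5 of 14 sensors and transcription factors and 2.47% of all genes. Without any single sample other than control 1, no member was called beside 1 to 4 of the 14. In those fits 1 to 7 of the 20 chaperones and folding enzymes were called, and 0.364% to 1.48% of all genes. Without control 1 the counts were 19 of 20 and 12 of 14, beside 9 of 10 members and 21.6% of all genes.

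**Figure D4:**
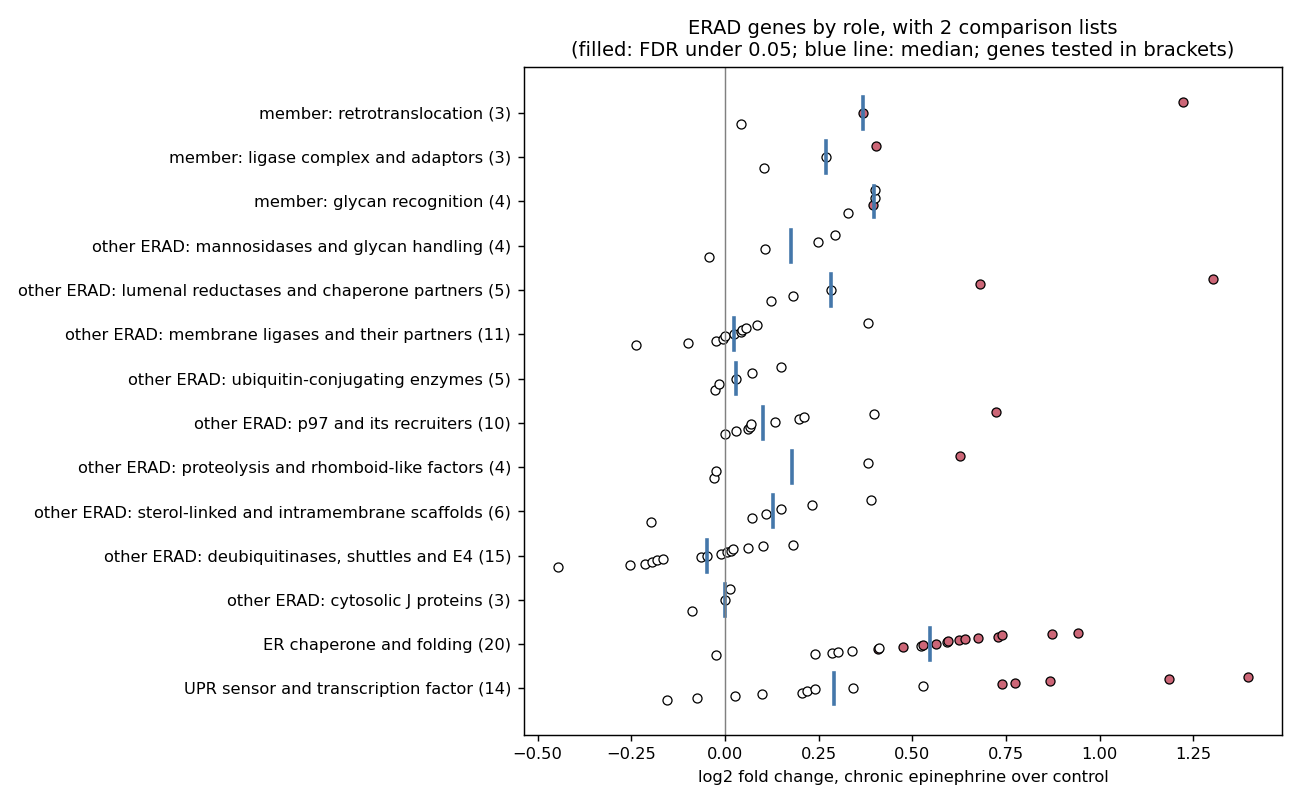
Log2 fold change of every tested member, further ERAD gene and gene of the comparison lists, by role (rows, genes tested in brackets), with filled points for an FDR under 0.05 and a blue line at the median. Medians are 0.37, 0.27 and 0.40 in the 3 groups of members, lie between -0.05 and 0.28 in the further ERAD roles, and reach 0.55 for chaperones and folding enzymes, all with every sample included. Without control 1 the 0.27 of the ligase complex is 0.46 and the -0.05 of the deubiquitinases turns to 0.059.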

How the data were processed

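Total RNA of 6 MIN6 samples was sequenced on an Illumina Novaseq6000. The authors deposited 1 table with an expected count (not normalized, 8.34% of values not whole) and an FPKM value for each gene and sample, and the submitters' processing notes name the build GRCm38. The aligner, the counting tool and the use of strand are not given in the sources used here. Columns were matched to samples by group and number.

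Counts were rounded, filtered with filterByExpr, normalized by TMM and tested with edgeR 4.0.16 (R 4.3.3), with the group as the only term. The SE is the log2 fold change divided by the square root of F, and 95% intervals use 8.46 degrees of freedom. The study names DESeq2 and edgeR without saying which gave its calls, so DESeq2 1.42.0 was an alternative. The others were 3 scalings, limma 3.58.1 on log2(FPKM + 1) and log2(FPKM + 0.1), 2 filters, a replicate block and each sample left out. Ratios used log2(count + 0.5). A count of 0 allows up to 3 counts, 0.165 to 0.200 CPM, for counting error only. The script was tested on simulated data. No 2 samples agreed within sampling noise.

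Members and lists were chosen with earlier results of these data known. Genes named are all members and the smallest p of each comparison list. From the further ERAD list they are the genes edgeR called with all samples and the largest change in each role. Positions and shared 50-base windows are from GENCODE M21. Sequences are from RefSeq.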

Additional observations from a re-analysis of the deposited data

How the results depend on the processing

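With all 6 samples the 10 members kept their direction in all 9 other settings, and their median log2 fold change stayed between 0.33 and 0.38. The calls lay close to the threshold. Derl3 was called in all 9, and the number of members called, 4 as reported, was 1 with library size only, with limma on either FPKM scale, without a filter and with the replicate block. It was 0 to 9 with a sample left out. Derl1 was not called, at log2 fold changes of 0.34 with library size only and 0.34 and 0.34 with limma after adding 1 and 0.1 to FPKM, 0.37 without a filter and 0.37 with the block. Herpud1 was not called at 0.40 with DESeq2 size factors, 0.38 with library size only, 0.35 and 0.36 with limma, 0.40 without a filter and 0.41 with the block. Erlec1 was not called at 0.39 with upper quartile factors, 0.37 with library size only, 0.33 and 0.34 with limma, 0.39 without a filter and 0.40 with the block. Edem1 and Edem2 were called by DESeq2 at 0.32 and 0.39. The cause of these differences was not tested.

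With a sample left out, log2 fold changes ran from 0.36 to 0.39 for Derl1, -0.057 to 0.094 for Derl2, 1.11 to 1.46 for Derl3, 0.0091 to 0.27 for Sel1l, 0.10 to 0.60 for Syvn1, 0.36 to 0.46 for Herpud1, 0.30 to 0.36 for Edem1, 0.33 to 0.51 for Edem2, 0.31 to 0.54 for Os9 and 0.35 to 0.42 for Erlec1. Derl2 turned to -0.057 without control 1. The ratio of Os9 to Erlec1 ran from -0.085 to 0.18 and was -0.085 without control 2, -0.05 without control 3 and -0.02 without chronic epinephrine 3. The ratio of Herpud1 to Syvn1 ran from -0.14, without control 1, to 0.22.

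Over all genes 335 were called, 178 with the replicate block and 47 to 2798 with a sample left out. DESeq2 called 729 of the 14378 genes to which it gave an adjusted p-value. The further ERAD list had 8 called with DESeq2 and 1 to 19 with a sample left out, the chaperone list 1 to 19 and the list of sensors and transcription factors 1 to 12. The median of the further ERAD list was 0.019 with library size only and 0.040 to 0.080 with a sample left out. Replicate numbers were not treated as pairs, since deviations of same-numbered samples correlated at 0.0502, 0.0677 and -0.0488 across genes and not every sample correlated best with its own number.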
